A study of Homo sapiens with 16 samples.

Results

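Mitochondrial ribosomal protein genes were taken as the genes whose gene-level probe set carried a single gene symbol that began with MRPL or MRPS followed by a number. The rule found 74 genes on 78 probe sets, of 18395 genes with such a probe set, and they comprised 48 MRPL genes, 25 MRPS genes and the pseudogene MRPS31P5. The samples were L1236 cells, an established Hodgkin lymphoma line, infected on consecutive days with a retrovirus that carries a doxycycline-inducible short hairpin RNA against RELB, a subunit of the NF-κB transcription factor. The 4 arrays labelled induced came from infected cells given doxycycline to switch the hairpin on, and the 4 arrays labelled uninduced came from infected cells without doxycycline. Both groups therefore carried the retrovirus, and no uninfected cells were among the samples used. Each label held 2 arrays coded B_1 and 2 coded B_4, and within each code 1 array ended in the number 1 and 1 in the number 4. The labels do not say what the code and the last number stand for, nor whether separate cultures lie behind them, so the tests reflect only how much these arrays vary. Replicates 1 to 4 of each label are B_1 number 1, B_1 number 4, B_4 number 1 and B_4 number 4, and values are listed in that order. The 8 hybridisations gave 16 samples, since each was summarised at the level of genes and again at that of exons.

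The mitochondrial ribosome translates the few messages of mitochondrial DNA, which encode core subunits of the respiratory chain and of ATP synthase. Its RNA is made inside the organelle, but its proteins are encoded in the nucleus, translated in the cytosol and imported. MRPL proteins belong mostly to the large subunit, which forms peptide bonds and releases the chain at the inner membrane, and MRPS proteins mostly to the small subunit, which reads the message. Many of them descend from bacterial ribosomal proteins, and others exist only in mitochondrial ribosomes.

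The targeted gene and the markers of the cell line were examined first. RELB had log2 signals of 7.22, 7.26, 7.39 and 7.14 on the induced arrays, against 7.23, 7.38, 7.54 and 7.45 on the uninduced arrays. The values overlapped, and the difference of -0.15 ± 0.09 (SE) missed the threshold (limma adjusted p = 0.212). A two-sided exact permutation test that ignored code and number gave p = 0.171 (smallest possible p 0.0286). Within pairs of arrays with the same code and number, RELB was lower in all 4, by -0.006, -0.12, -0.15 and -0.31. Since no call was reached, the libraries are named below by their labels. TNFRSF8, which encodes the Hodgkin marker CD30, averaged 11.59 ± 0.10 on the induced arrays and 6.89 ± 0.21 on the uninduced arrays (SD, n = 4 each). The B-cell genes PAX5 (11.81 and 9.05) and CD79A (11.04 and 5.73) were also higher on the induced arrays. GATA3, also on the list of Hodgkin markers, was lower (4.81 and 9.999), as was the fibroblast marker FAP (3.29 and 8.56). The induced values of FAP were below 4.78, the lowest mean at which a gene was tested. FAP was therefore tested only because of its uninduced values. Of the 8 Hodgkin markers, 3 passed as higher (TNFRSF8, IRF4 and TRAF1), 3 as lower (GATA3, CD40 and FUT4) and 2 did not pass (CCL17 and CD70). Of the 5 B-cell markers measured, 3 were higher (PAX5, CD79A and POU2AF1), CD79B did not pass (6.27 and 6.32) and MS4A1 was too dim to be tested. Of the T-cell markers, ZAP70 was higher, CD5 did not pass, and CD3D, CD3E, CD2 and TRAT1 were too dim to be tested. Of the 6 fibroblast markers, PDGFRB was higher, FAP lower, COL1A1, COL1A2 and COL3A1 did not pass and DCN was too dim to be tested. Of the 5 myeloid markers, ITGAM was lower, CD14, CSF1R and TYROBP did not pass and LYZ was too dim. The 2 sets of arrays thus differed in identity markers as well as in label, and these differences cannot be told apart from induction. The array medians lay between 5.79 and 5.88 on the log2 scale. In bulk RNA, fewer cells of a kind and less RNA per cell cannot be told apart.

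The genes of the mitochondrial ribosome moved by small amounts, and more of them upwards than downwards in the arrays labelled induced. Of 72 protein-coding members above the signal filter, 32 had higher signal, 10 had lower signal and 30 fell short of a limma adjusted p of 0.05. The share called, 58.3%, was close to the 55.5% of all 13796 genes tested. The directions were less alike: 44.4% of the members were higher, against 27.1% of all genes, and 13.9% were lower, against 28.4% of all genes. The median difference of the members was 0.20 on the log2 scale and that of all genes was 0.02, while the median absolute difference was 0.28 for the members and 0.30 for all genes. The middle part of the members, between the quartiles, ran from -0.05 to 0.48. A difference of at least 2-fold was seen in 3 members, MRPS21, MRPS33 and MRPL45, whereas 16.5% of all genes differed that much. In 26 members the 4 induced values lay above the 4 uninduced ones and in 8 below, and over all genes the groups did not overlap for 49.8%, with 24.2% above and 25.6% below.

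The balance of directions depends on the scale of the arrays. When each array was centred on the median of its probe sets with 1 symbol, a choice made after seeing the data, 42 members were higher and 4 lower, and the share of higher among called members was 91.3% rather than 76.2%. The same step raised the median difference of all genes to 0.16 and their share of higher calls to 63.7%, from 48.9%. The pseudogene MRPS31P5 was also higher by 0.27 ± 0.10 (adjusted p = 0.0362). MRPL13, whose product is a large-subunit protein with a bacterial counterpart, had a gene-level probe set too dim to be tested, with mean log2 signals of 4.26 and 4.27 on the induced and uninduced arrays. At exon level 5 of its 8 probe sets were bright enough to be tested, the brightest averaging 7.96 under both labels, and none of the 5 passed. MRPL51, MRPS6, MRPS24 and MRPS28 shared their probe sets with another symbol and fell outside the rule.

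**Figure D1:**
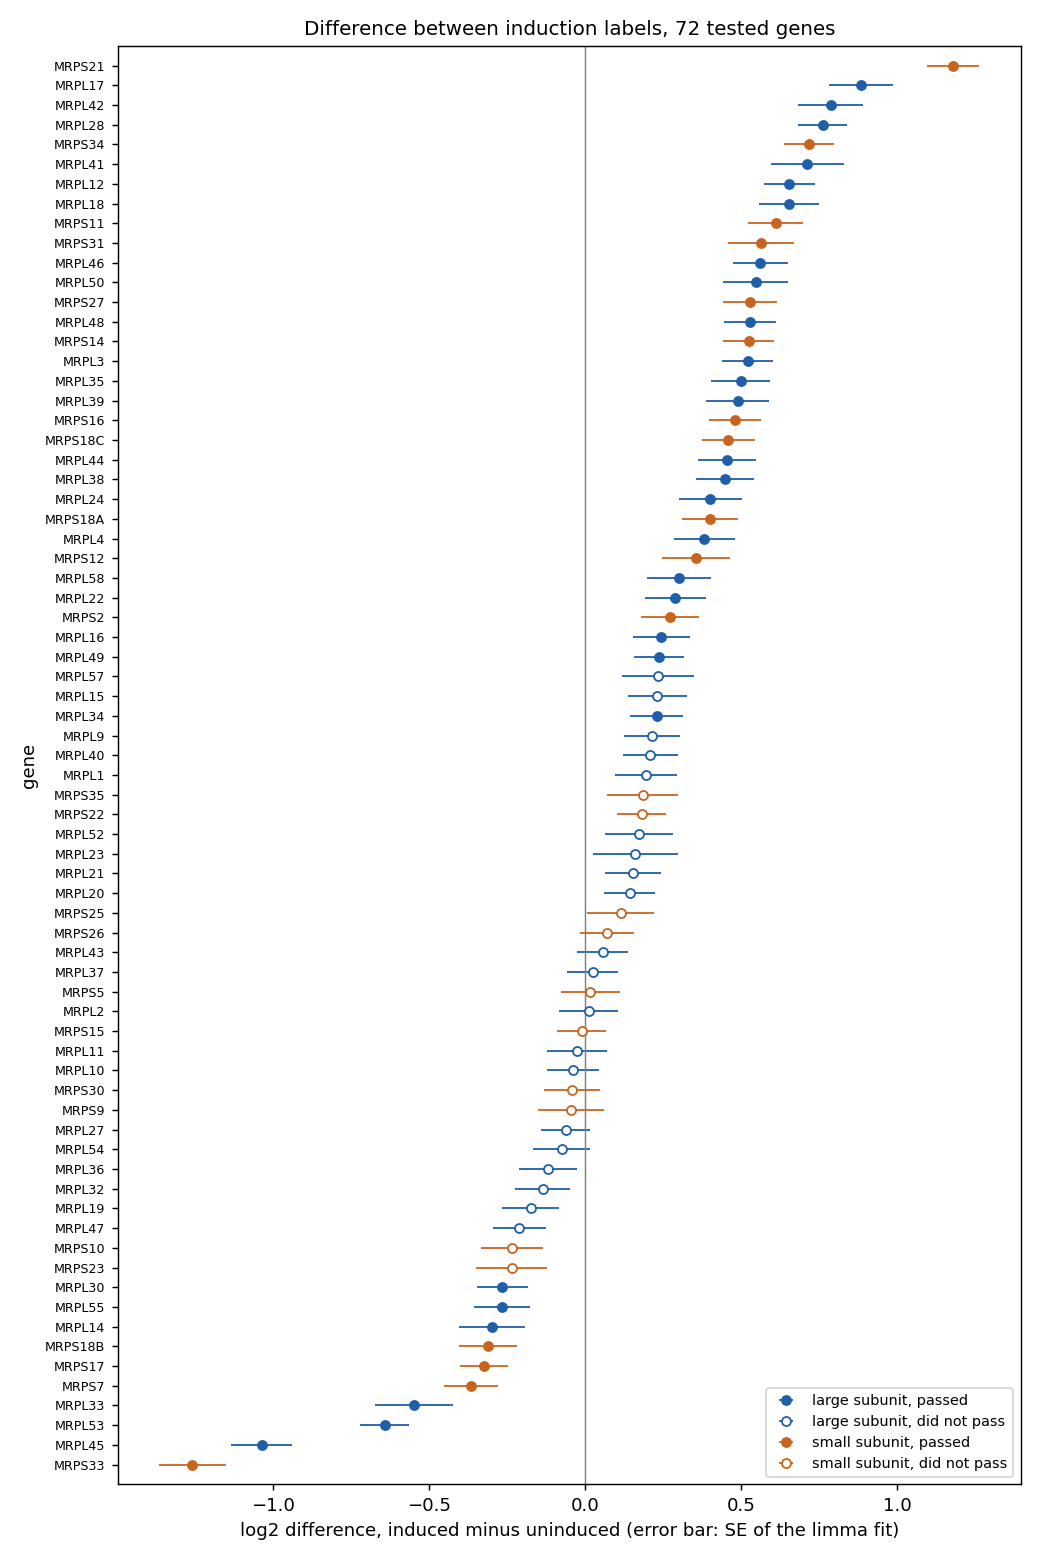
Log2 difference, induced minus uninduced, of the 72 tested protein-coding members, ordered from the largest rise at the top to the largest fall at the bottom. Points are limma estimates, bars are 1 SE, filled points passed an adjusted p of 0.05 and colours give the subunit. Most members lie between -0.3 and 0.8, with MRPS21 above that range and MRPS33 and MRPL45 well below it.

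The largest rise was in MRPS21, a small-subunit protein with a bacterial counterpart. Its log2 signals were 9.60, 9.38, 9.57 and 9.43 on the induced arrays, against 8.35, 8.37, 8.25 and 8.28 on the uninduced arrays. The lowest induced array stood about 1 log2 unit above the highest uninduced one, and the difference was 1.18 ± 0.08 (SE, adjusted p = 5.57e-07). MRPL17, a large-subunit protein with a bacterial counterpart, had 8.56, 8.67, 8.56 and 8.63 on the induced arrays, against 7.45, 7.59, 7.92 and 7.93 on the uninduced arrays. The groups did not overlap, the induced values were tight and the uninduced values of B_4 were higher than those of B_1, with a difference of 0.88 ± 0.10 (adjusted p = 2.46e-05).

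The largest fall was in MRPS33, a small-subunit protein specific to mitochondria. Its log2 signals were 5.87, 5.35, 5.48 and 5.53 on the induced arrays, against 6.99, 6.96, 6.76 and 6.57 on the uninduced arrays. The groups did not overlap, and the difference was -1.26 ± 0.11 (adjusted p = 2.20e-06). MRPL45, which holds the large subunit at the inner membrane beside the tunnel exit, had 9.81, 9.81, 9.86 and 9.82 on the induced arrays, against 11.07, 11.02, 10.77 and 10.61 on the uninduced arrays. The induced arrays were nearly identical, the uninduced ones were spread by code, and the difference was -1.04 ± 0.10 (adjusted p = 5.51e-06).

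**Figure D2:**
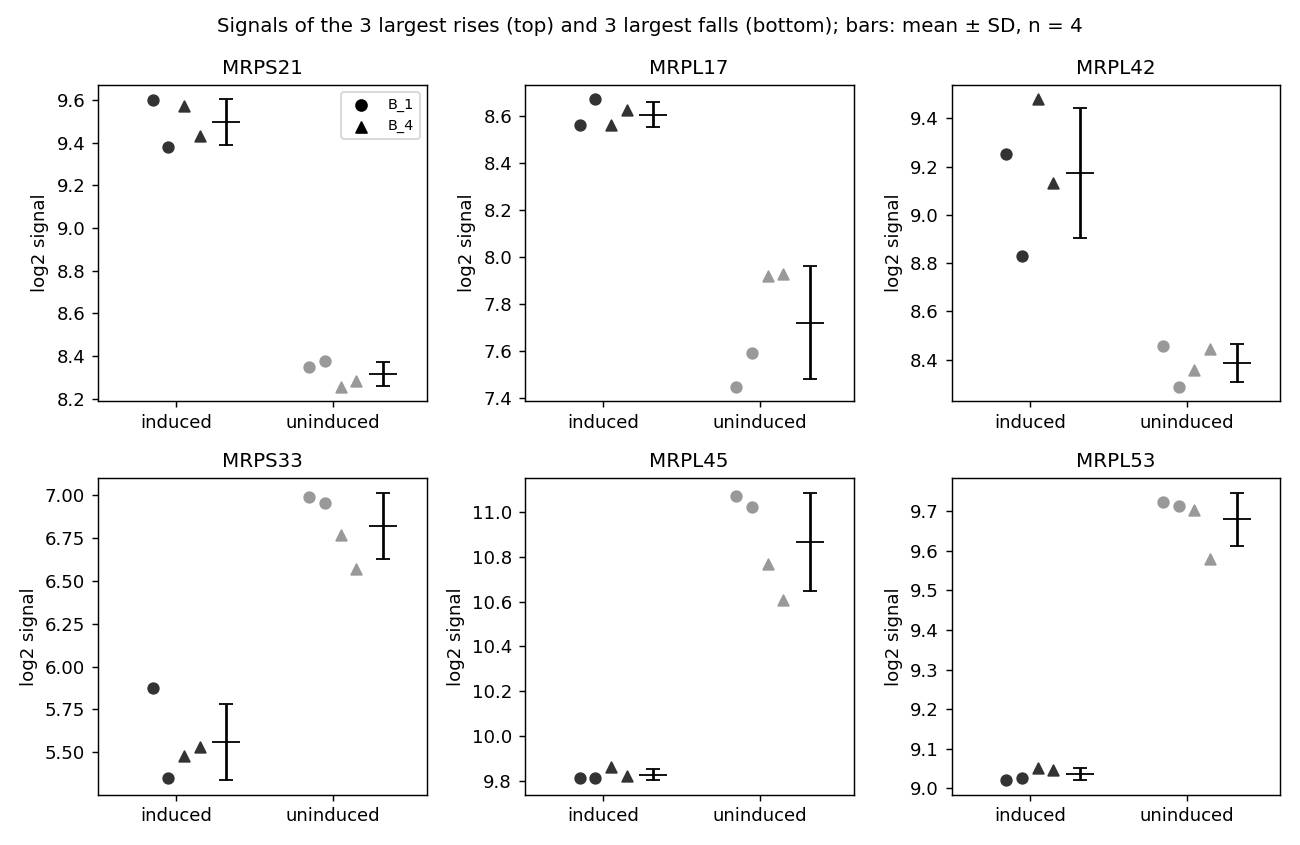
Log2 signal on each array for the 3 members with the largest rises (top row) and the 3 with the largest falls (bottom row), induced left of uninduced. Circles are B_1, triangles B_4 and bars mean ± SD with n = 4, and the vertical axes do not start at 0. In none of these 6 genes do the groups overlap, and the uninduced arrays of MRPL17, MRPS33 and MRPL45 separate visibly by B code.

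The promoters of these 4 genes are shown because they are the extremes of each subunit in both directions. Each run holds 250 bases before and 50 bases after the start of the gene, read 5′ to 3′ on the gene's strand, from RefSeq on GRCh38.p14. Capitals mark matches, on either strand, to the letters GCGCANGCG (NRF1), CCGGAAGT (ETS family, to which GABPA belongs), AANATGGC (YY1) and CACGTG (the E-box bound by MYC and others). MRPS21 lies at chr1:150293611-150293910 on the plus strand, MRPL17 at chr11:6683291-6683590 on the minus strand, MRPS33 at chr7:141014630-141014929 on the minus strand and MRPL45 at chr17:38296918-38297217 on the plus strand.
MRPS21: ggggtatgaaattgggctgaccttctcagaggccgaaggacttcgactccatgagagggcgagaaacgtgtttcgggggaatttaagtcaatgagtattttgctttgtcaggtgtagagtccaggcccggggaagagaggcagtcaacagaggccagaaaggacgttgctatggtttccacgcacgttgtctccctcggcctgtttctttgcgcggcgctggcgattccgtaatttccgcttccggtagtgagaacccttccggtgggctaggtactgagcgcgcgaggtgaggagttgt
MRPL17: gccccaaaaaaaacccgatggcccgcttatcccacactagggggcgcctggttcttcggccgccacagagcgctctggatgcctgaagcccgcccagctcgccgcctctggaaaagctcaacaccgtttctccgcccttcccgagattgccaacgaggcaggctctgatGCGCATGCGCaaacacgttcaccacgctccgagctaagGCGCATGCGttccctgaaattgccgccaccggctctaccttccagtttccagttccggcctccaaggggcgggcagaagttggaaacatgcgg
MRPS33: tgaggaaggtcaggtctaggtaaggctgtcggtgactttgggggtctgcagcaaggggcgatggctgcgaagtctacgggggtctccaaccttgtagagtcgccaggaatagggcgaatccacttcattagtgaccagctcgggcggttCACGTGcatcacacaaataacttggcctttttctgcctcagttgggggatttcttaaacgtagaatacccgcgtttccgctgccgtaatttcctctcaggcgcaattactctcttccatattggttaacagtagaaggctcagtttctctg
MRPL45: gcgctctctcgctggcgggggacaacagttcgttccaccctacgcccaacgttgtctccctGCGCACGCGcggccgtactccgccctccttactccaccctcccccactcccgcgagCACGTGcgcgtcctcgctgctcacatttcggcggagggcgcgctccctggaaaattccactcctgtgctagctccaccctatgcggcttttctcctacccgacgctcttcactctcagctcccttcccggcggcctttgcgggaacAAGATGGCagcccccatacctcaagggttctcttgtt

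The MRPL17 window held 2 stretches with the NRF1 letters, the first matched on both strands because it is a palindrome. The MRPL45 window held the NRF1, E-box and YY1 letters, the last downstream of the start. The MRPS33 window held an E-box, and none of the 4 motifs was found in the MRPS21 window. A match is a run of letters and not a site shown to be bound.

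Promoter windows were found for 66 of the 73 protein-coding members, and 38 of them held at least 1 of the 4 motifs. The YY1 letters stood out by count, in 23 of 66 windows or 34.8% (Wilson 95% interval 24.5% to 46.9%), against 9.42% of the windows of all tested genes and 6.78% of 27305 windows. The NRF1 letters were in 16.7% of member windows, against 12.9% for tested genes and 7.79% for all windows. The ETS letters were in 15.2%, against 7.65% for tested genes and 4.35% for all windows, and the E-box was in 13.6%, against 9.49% and 7.28%. When the search was limited to the last 150 bases, the NRF1 share was 6.06% of members against 9.15% of tested genes. The E-box share was 4.55% against 5.67%. For both motifs the members lay above tested genes in the whole window and below them in the shorter one. The members' Wilson 95% intervals held the tested-gene share each time. For NRF1 they were 9.57% to 27.4% and 2.38% to 14.6%, and for the E-box 7.34% to 23.9% and 1.56% to 12.5%. The order is therefore not settled for either motif. The YY1 letters were in 9 of 31 windows of members that were higher, in 3 of 10 of those lower and in 11 of 25 of those that did not pass. Member windows had a median of 24 CG dinucleotides, against 25 for tested genes and 13 for all windows.

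Large-subunit genes were 21 higher, 6 lower and 20 not passed of 47 tested, with a median difference of 0.21. The share called was 57.4%, against 55.5% of all tested genes. After MRPL17, the largest rises that held in all 4 pairs of same-coded arrays were those of MRPL42, MRPL28, MRPL41, MRPL12, MRPL18 and MRPL46. MRPL42, specific to mitochondria, had 9.25, 8.83, 9.48 and 9.13 on the induced arrays, against 8.46, 8.29, 8.36 and 8.44 on the uninduced arrays. The groups did not overlap (0.79 ± 0.10, adjusted p = 6.93e-05), and the induced values were the more scattered. MRPL28, the counterpart of a bacterial large-subunit protein, had 8.57, 8.49, 8.71 and 8.61 on the induced arrays, against 7.78, 7.81, 7.96 and 7.79 on the uninduced arrays. All 4 induced values were higher by a wide margin (0.76 ± 0.08, adjusted p = 1.10e-05). MRPL41, specific to mitochondria, differed by 0.71 ± 0.12, with values of 8.70 to 9.22 on the induced and 8.04 to 8.37 on the uninduced arrays. MRPL18, whose bacterial relative contacts the 5S ribosomal RNA, differed by 0.65 ± 0.10, and MRPL46, specific to mitochondria, by 0.56 ± 0.09.

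Falls in the large subunit were fewer. MRPL53, a protein at the base of the stalk, had 9.02, 9.03, 9.05 and 9.05 on the induced arrays, against 9.72, 9.71, 9.70 and 9.58 on the uninduced arrays. Both groups were tight and well apart (-0.64 ± 0.08, adjusted p = 4.04e-05). MRPL33, with a bacterial counterpart, had 6.24, 6.16, 6.39 and 5.996 on the induced arrays, against 6.55, 6.58, 6.76 and 7.09 on the uninduced arrays. The groups were separated by a small gap (-0.55 ± 0.12, adjusted p = 0.00304), and averaging its exon-level probe sets gave -0.27, which did not pass. MRPL55 (-0.27 ± 0.09) and MRPL30 (-0.27 ± 0.08) were near the threshold. MRPL55 lost its call without induced replicate 2 or 4 or without uninduced replicate 2, 3 or 4 (differences of -0.25, -0.22, -0.22, -0.25 and -0.25). It also lost it with the pairs as a random block (adjusted p = 0.0575) and by the mean of exon-level probe sets (-0.23, adjusted p = 0.0805). MRPL30 lost it without induced replicate 1 (-0.24) or uninduced replicate 2 (-0.22). Centring on probe sets with 1 symbol ended both calls, at -0.13 in each gene (adjusted p = 0.256 for MRPL55 and 0.201 for MRPL30). MRPL14, which also passed as lower, overlapped between labels and was higher in 1 of 4 pairs, so it was not counted among the falls that held in every pair. Without uninduced replicate 2 the large subunit kept 3 lower calls rather than 6.

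The large subunit could be divided by origin and position. Of 28 tested proteins with a bacterial counterpart, 11 were higher, 3 lower and 14 not passed, with a median of 0.18. Of 18 specific to mitochondria, 10 were higher, 2 lower and 6 not passed, with a median of 0.27. The shares called were 50% and 66.7%, on either side of the 55.5% of all tested genes. The difference between the groups was not tested, so the counts cannot be read as a result about origin. In the stalk, which recruits translation factors, MRPL12 was higher and MRPL53 lower. MRPL12 had 8.66, 8.46, 8.91 and 8.68 on the induced arrays, against 7.89, 7.94, 8.19 and 8.07 on the uninduced arrays, with no overlap (0.65 ± 0.08, adjusted p = 4.93e-05). The other stalk proteins, MRPL10 and MRPL11, did not pass, with differences of -0.04 ± 0.08 and -0.03 ± 0.10; both turned positive under some settings, to at most 0.11. Of the 7 proteins around the tunnel exit (MRPL22, MRPL23, MRPL24, MRPL39, MRPL44, MRPL45 and MRPL47), 4 were higher, MRPL45 was lower and 2 did not pass. The shares called were 50% of the 4 stalk genes and 71.4% of these 7, against 55.5% of all tested genes. MRPL44 and MRPL39, which resemble an RNase III and a tRNA synthetase, rose by 0.45 and 0.49 next to the fall of MRPL45.

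Small-subunit genes were 11 higher, 4 lower and 10 not passed of 25 tested, with a median difference of 0.18. The share called was 60%, against 55.5% of all tested genes. After MRPS21 the largest rises that held in all 4 pairs were those of MRPS34, MRPS11, MRPS31 and MRPS27. MRPS34, specific to mitochondria, had 8.89, 8.72, 9.09 and 8.99 on the induced arrays, against 8.06, 8.10, 8.31 and 8.33 on the uninduced arrays. The groups did not overlap, although within each label the B_4 arrays were higher than the B_1 arrays (0.72 ± 0.08, adjusted p = 1.99e-05). MRPS11, with a bacterial counterpart, had 8.45, 8.40, 8.53 and 8.55 on the induced arrays, against 7.96, 7.96, 7.84 and 7.74 on the uninduced arrays. It was separated in each pair (0.61 ± 0.09, adjusted p = 0.000143). MRPS31 differed by 0.56 ± 0.10 and MRPS27, a protein with pentatricopeptide repeats, by 0.53 ± 0.09, and neither overlapped between labels.

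After MRPS33, the small-subunit genes that passed as lower and were lower in all 4 pairs were MRPS7, MRPS17 and MRPS18B. MRPS7, whose bacterial relative organises the head of the small subunit, had 8.22, 7.87, 8.30 and 8.11 on the induced arrays, against 8.36, 8.38, 8.66 and 8.55 on the uninduced arrays. The gap between the groups was narrow (-0.37 ± 0.09, adjusted p = 0.00408). MRPS17, with a bacterial counterpart, differed by -0.32 ± 0.08 (adjusted p = 0.00391), without overlap. These 3 calls were lost when arrays were centred on probe sets with 1 symbol, where MRPS7 differed by -0.23 (adjusted p = 0.0549), MRPS17 by -0.19 (adjusted p = 0.0630) and MRPS18B by -0.18 (adjusted p = 0.147). MRPS10 (-0.24, adjusted p = 0.0657) and MRPS23 (-0.24, adjusted p = 0.107) had lower values in all 4 pairs and did not pass. Of 13 small-subunit proteins with a bacterial counterpart, 7 were higher, 2 lower and 4 not passed. Of 10 specific to mitochondria, 3 were higher, 2 lower and 5 not passed. The shares called were 69.2% and 50%, on either side of the 55.5% of all tested genes, and their difference was not tested.

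Some names do not match the place of the protein in the ribosome. MRPS18A and MRPS30 are built into the large subunit, and counting them there gave 22 higher, 6 lower and 21 not passed of 49 for the large subunit and 10, 4 and 9 of 23 for the small subunit. The 3 MRPS18 paralogues differed in direction. MRPS18A had 8.65, 8.46, 8.63 and 8.30 on the induced arrays, against 8.16, 8.19, 8.03 and 8.06 on the uninduced arrays, and was higher by 0.40 ± 0.09 (adjusted p = 0.00277). MRPS18C, the one in the place of the bacterial protein, had 6.69, 6.41, 6.70 and 6.57 on the induced arrays, against 6.10, 6.10, 6.30 and 6.02 on the uninduced arrays, and was higher by 0.46 ± 0.08 (adjusted p = 0.000775). MRPS18B had 9.42, 9.14, 9.41 and 9.36 on the induced arrays, against 9.54, 9.73, 9.74 and 9.57 on the uninduced arrays, and differed by -0.31 ± 0.09 (adjusted p = 0.0150). No paralogue overlapped between labels, but MRPS18B lost its call without induced replicate 2 (-0.25, adjusted p = 0.0543) or uninduced replicate 2 (-0.24, adjusted p = 0.0660). The mean of the exon-level probe sets of MRPS18C was 0.24 and did not pass. MRPS30 did not pass, at -0.04 ± 0.09.

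At the threshold, MRPL16 (0.24, adjusted p = 0.0418) and MRPL34 (0.23, adjusted p = 0.0429) were just inside, and MRPL47 (-0.21, adjusted p = 0.0562) and MRPL15 (0.23, adjusted p = 0.0605) just outside. These are large-subunit proteins with bacterial counterparts. MRPL16 lost its call when any of 6 arrays was left out, induced replicates 1, 3 and 4 and uninduced replicates 1, 3 and 4, with differences of 0.19 to 0.31 over all such fits. MRPL34 lost its call when any of induced replicates 1, 2 and 3 and uninduced replicates 1, 3 and 4 was left out, with differences of 0.17 to 0.27. Both calls were also lost with the pairs as a block, fixed (adjusted p = 0.0646 for MRPL16 and 0.0650 for MRPL34) or random (0.0682 and 0.0819), and with median centring (0.0555 and 0.0510), and that of MRPL16 without covariates (0.0848). MRPL47 passed without induced replicate 3 (-0.26), and MRPL15 passed without uninduced replicate 2 (0.32).

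To follow both subunits array by array, each gene was set relative to its own mean over the 8 arrays. The median of the large subunit was 0.17, -0.07, 0.27 and 0.09 on the induced arrays, against -0.15, -0.10, -0.03 and -0.14 on the uninduced arrays. The median of the small subunit was 0.17, -0.11, 0.23 and 0.06 on the induced arrays, against -0.11, -0.02, -0.03 and -0.13 on the uninduced arrays. Induced replicate 2 stood apart from the other induced arrays in both subunits, with medians below 0 and within the range of the uninduced arrays. Over all tested genes the corresponding medians lay between -0.03 and 0.02. On induced replicate 2, 18 of 47 large-subunit and 10 of 25 small-subunit genes were above their own mean, compared with 29 to 38 and 13 to 21 on the other induced arrays.

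**Figure D3:**
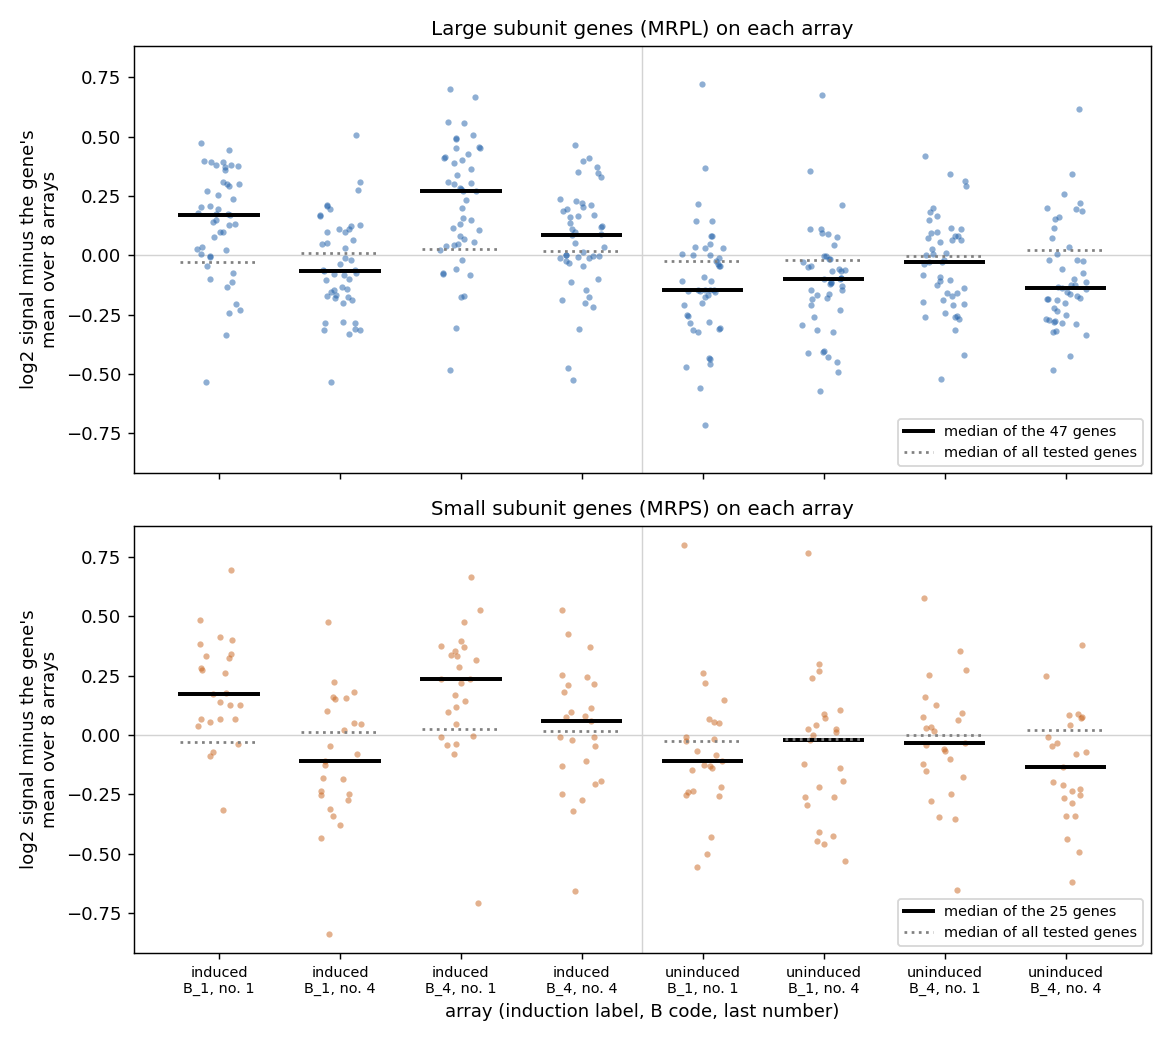
Log2 signal of each tested member minus its mean over the 8 arrays, for the large subunit (top) and the small subunit (bottom), with the 4 induced arrays left of the 4 uninduced ones. Points are genes, black lines the median of the subunit and dotted lines the median of all tested genes. The subunit medians are above 0 on 3 of the 4 induced arrays and below 0 on the induced B_1 array with number 4 and on the 4 uninduced arrays.

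Within pairs of arrays with the same code and number, the median difference of the 72 members was 0.28, 0.06, 0.26 and 0.22, and 53, 38, 52 and 49 members were positive. The corresponding medians over all genes were -0.02, 0.04, 0.03 and 0.00, and 6664, 7343, 7266 and 6834 of 13796 genes were positive. In the pair B_1 number 4 the members thus lay close to all genes, in median and in share positive. A comparison by last number, added after the per-array medians were seen, gave median differences of 0.28 among arrays ending in 1 and 0.12 among those ending in 4. The difference was smaller in arrays ending in 4 for 60 of 72 members, against 6891 of 13796 genes. By limma, 0 members passed an adjusted test of this interaction and 2 had an unadjusted p under 0.05, against 0% and 2.95% of all genes. Without induced replicate 2, 34 members were higher and 7 lower, while 49.2% of all called genes were higher, against 48.9% with every array.

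The members were then compared between the B codes. The median difference between induction labels was 0.14 within B_1 and 0.23 within B_4, and over all genes it was 0.02 in both. For the large subunit it was 0.14 within B_1 and 0.25 within B_4, and for the small subunit 0.10 and 0.18. By pair, the medians of the 72 members were 0.28 and 0.06 in B_1 and 0.26 and 0.22 in B_4. The lower B_1 value thus rests on the pair that includes induced replicate 2. The part of that array in the contrast between codes was not tested. No member passed the limma test of the interaction between label and code after adjustment, against 0.297% of all genes, and 4 had an unadjusted p under 0.05, against 11.9% of all genes. The lowest p was that of MRPL17, whose difference was 1.10 in B_1 and 0.67 in B_4 (interaction -0.43 ± 0.15, adjusted p = 0.304). MRPL45 differed by -1.23 in B_1 and -0.84 in B_4 (interaction 0.39 ± 0.15, adjusted p = 0.357). MRPL50, specific to mitochondria, differed by 0.74 in B_1 and 0.36 in B_4 (interaction -0.38 ± 0.17, adjusted p = 0.414). In these 3 genes the induced means of the codes were close, 8.62 and 8.60 for MRPL17 in B_1 and B_4, while the uninduced means were 7.52 and 7.92.

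**Figure D4:**
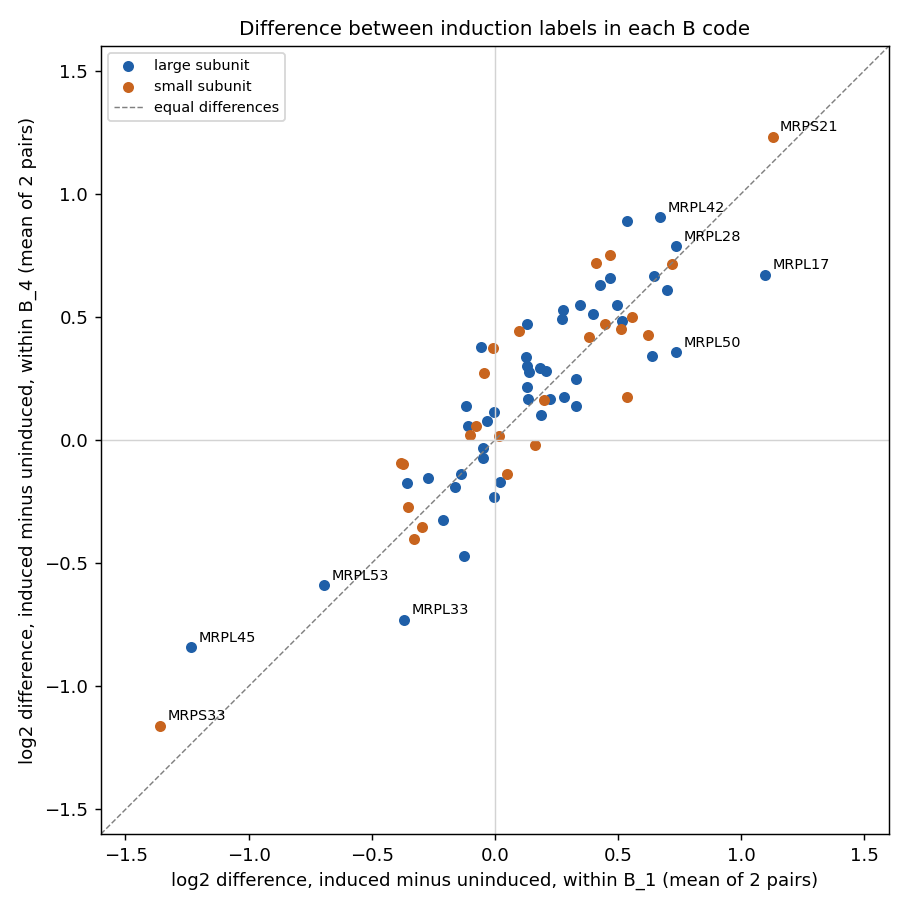
Log2 difference, induced minus uninduced, within B_4 (vertical) against that within B_1 (horizontal) for the 72 tested members, each the mean of 2 pairs of arrays. Colours give the subunit and the dashed line marks equal differences. MRPS21, MRPL17, MRPS33 and MRPL45 have the same direction in both codes, and MRPL17, MRPL45 and MRPL50 have smaller differences in B_4 than in B_1.

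Between the codes themselves, B_4 minus B_1, 52 of 72 members were positive, with a median of 0.07 against 0.01 for all genes. By subunit, 38 of 47 large-subunit and 14 of 25 small-subunit genes were positive. By limma 0 members and 0% of all genes passed after adjustment, and 6 members had an unadjusted p under 0.05, against 13.9% of all genes. The lowest p values belonged to MRPS34 (0.24 ± 0.08, adjusted p = 0.273), MRPL12 (0.23 ± 0.08, adjusted p = 0.295) and MRPS12, a protein of the decoding centre (0.30 ± 0.11, adjusted p = 0.295). MRPS12 had 7.51, 7.18, 7.62 and 7.31 on the induced arrays, against 6.80, 6.82, 7.26 and 7.31 on the uninduced arrays. Its highest uninduced values were those of B_4 and overlapped the induced range. It passed as higher on induction (0.36 ± 0.11) but not without induced replicate 1 (0.26) or uninduced replicate 1 (0.27), or by the mean of exon-level probe sets (0.30, adjusted p = 0.0954).

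The exon-level summary of the same arrays gave a view along each gene. Of 493 tested exon-level probe sets of 71 members, 98 were higher, 23 lower and 372 did not pass. The background was 35.4% called of 168240 probe sets, 17.9% higher and 17.5% lower. The members' probe sets were thus called less often than the background. Their share of higher calls was only slightly above it, unlike at gene level, and their share of lower calls was well below it. The mean over a gene's probe sets had the sign of the gene-level difference in 63 of 71 members, and in none of 41 called members was the sign opposite. MRPL45 was lower in 5 of 5 probe sets, by -1.14 to -0.94. MRPS33 was lower in both of its tested probe sets, by -1.21 and -1.98, and MRPS34 was higher in 4 of 4. MRPL42 was higher in 7 of 8 and MRPS21 in 3 of 5 tested probe sets.

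Other members were uneven along their length, and those named here were chosen after their values were seen. MRPL17 was higher in 4 of 7 probe sets, by 0.89 to 1.07, whereas the last ones by identifier differed by -0.31 and -0.51 and did not pass. One probe set of MRPL39 had 9.14, 8.89, 8.80 and 8.98 on the induced arrays, against 7.30, 7.20, 6.96 and 6.92 on the uninduced arrays. It differed by 1.86 ± 0.15 (adjusted p = 9.87e-05), while the other tested probe sets of the gene differed by 0.27 to 0.87. In MRPL33 the first probe set differed by 0.57 and did not pass, the second by -0.57 and did not pass, and the third by -0.82, which passed as lower. In MRPL20 a probe set too dim to be tested had 2.72, 3.31, 2.96 and 2.29 on the induced arrays, against 6.26, 5.36, 5.31 and 6.40 on the uninduced arrays. Its groups were far apart, although the gene-level values of MRPL20 differed by 0.14 and did not pass. MRPL48, specific to mitochondria, was higher in 7 probe sets and lower in 1. MRPL36 had 2 gene-level probe sets that disagreed, the tested one averaging 10.89 on the induced and 11.01 on the uninduced arrays and the other 9.28 and 8.87.

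**Figure D5:**
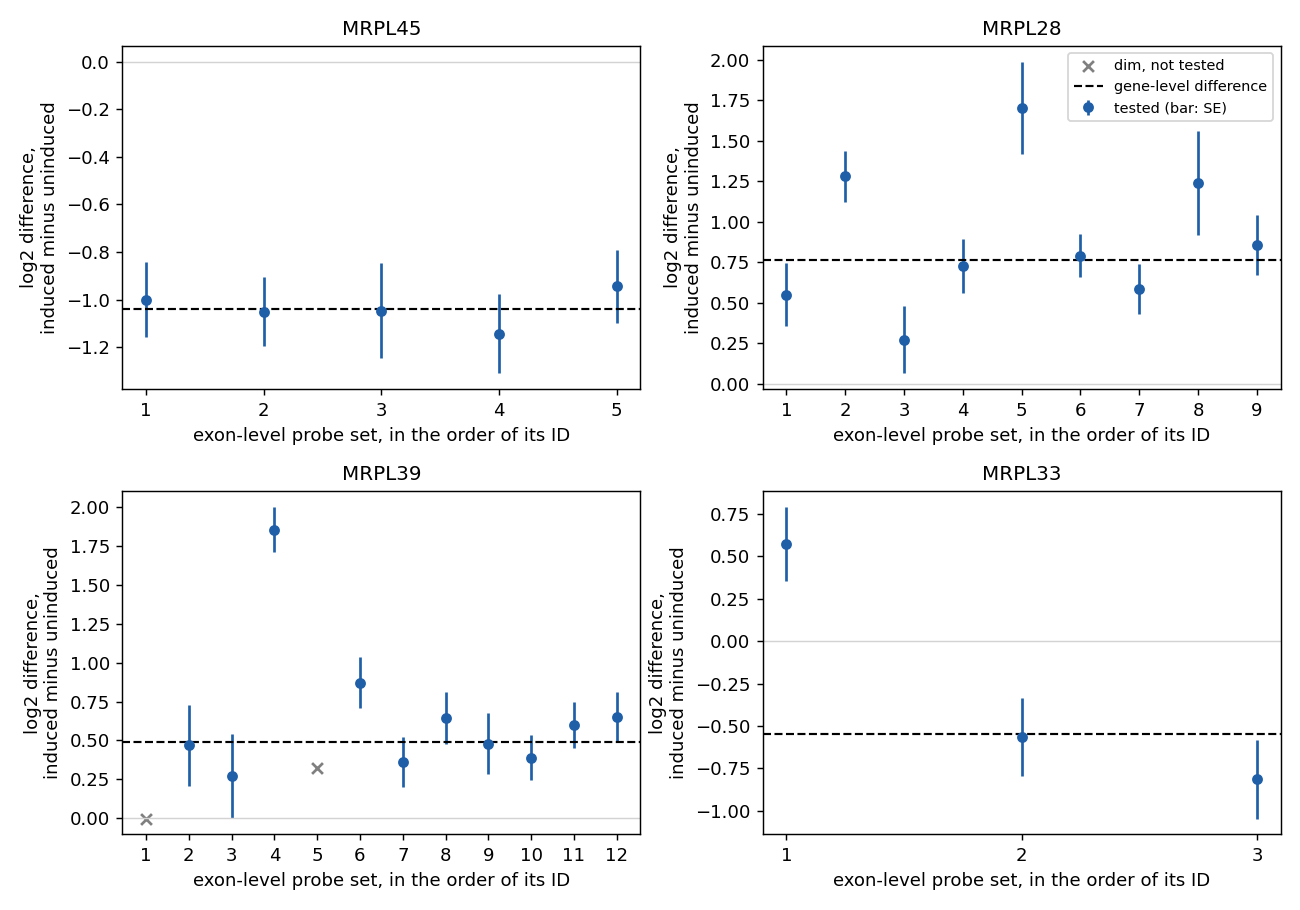
Log2 difference, induced minus uninduced, of the exon-level probe sets of 4 members in the order of their identifiers. Points with bars are tested probe sets with 1 SE, crosses are probe sets too dim to be tested and the dashed line is the gene-level difference. MRPL45 is even along the gene, MRPL28 and MRPL39 vary in size with no tested probe set below 0, and MRPL33 has differences on both sides of 0.

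The members lie on 21 chromosomes, and their calls were compared with those of the 5 tested genes on either side. MRPL33, on chromosome 2, lay among neighbours with a median of -0.67, of which 6 were lower and 0 higher. MRPS18B, on chromosome 6, lay among neighbours with a median of -0.54, of which 8 of 10 were lower. MRPL18, also on chromosome 6, and MRPS21, on chromosome 1, lay among neighbours that were mostly higher, with medians of 0.52 and 0.49. By contrast, the neighbours of MRPL45, on chromosome 17, had a median of 0.01, with 1 higher and 3 lower. Those of MRPS33, on chromosome 7, had a median of -0.20, with 1 higher and 5 lower. The 3 members on chromosome 9 and the 2 each on chromosomes 15 and 16 were higher, and 2 of 3 on chromosome 7 were lower. The 2 on chromosome 15, MRPL46 and MRPS11, share a start region. Over all tested genes 27.1% were higher and 28.4% lower. The shares of all genes on each chromosome were not computed, so these chromosome counts cannot be read as a trait of the members. MRPS27, on chromosome 5, was higher by 0.53 among neighbours with a median of -0.42, 1 higher and 5 lower. MRPS18A, on chromosome 6, was higher by 0.40 among neighbours with a median of -0.41, 2 higher and 6 lower. Among the 42 called members, the neighbours' median had the sign of the member in 32 and the opposite sign in 10. These were 24 of 32 members higher and 8 of 10 members lower with the same sign. The matching share over all called genes was not computed, so these counts cannot be read as a trait of the members. The part of the neighbourhood in these differences was not tested.

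Some members share a start region with a gene on the other strand: the promoter windows of 19 members, 28.8%, overlapped such a window, against 19.3% of the windows of tested genes. MRPL46 and MRPS11 face each other on chromosome 15, and both were higher, by 0.56 and 0.61. MRPL18 and TCP1, a subunit of the cytosolic chaperonin, were higher by 0.65 and 0.41, and MRPS12 and the mitochondrial seryl-tRNA synthetase gene SARS2 by 0.36 and 0.59. MRPL49 and FAU, which encodes a cytosolic ribosomal protein, were higher by 0.24 and 0.34. In 1 pair both genes were called and in opposite directions, MRPL30 at -0.27 and MITD1 at 0.61. Of 14 such pairs with both genes tested, the 4 above were called in the same direction, in 5 the member alone was called, in 2 the partner alone and in 2 neither. The matching counts over pairs of all tested genes were not made. Since 55.5% of all tested genes were called, the counts cannot be read as a trait of the members. The called members with a partner that did not pass were MRPL50 (0.55, with ZNF189 at -0.08), MRPS18C (0.46, with HELQ at -0.05), MRPS2 (0.27, with PIERCE1 at -0.19), MRPS27 (0.53, with PTCD2 at 0.10) and MRPS7 (-0.37, with GGA3 at 0.09).

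Genes that work with the mitochondrial ribosome were examined as lists, in which 54 genes other than members were tested. There were 32 calls higher and 10 lower, 12 genes not passing, with a median difference of 0.39. Thus 59.3% were higher and 18.5% lower, against 27.1% and 28.4% of all tested genes, whose median difference was 0.02. These shares of all genes are the background for each list below. The 32 include MTERF1, which passed the signal filter only through its induced values. Mitoribosomal proteins under symbols outside the rule included DAP3 (0.46 ± 0.09) and CHCHD1 (0.92 ± 0.10), both small-subunit proteins and both higher. PTCD3 (0.10 ± 0.08) of the small subunit and GADD45GIP1 (0.23 ± 0.09) of the large subunit did not pass.

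Among 9 translation factors, 7 were higher and 2 lower. MTRFR, a factor for the rescue of stalled ribosomes, had 8.16, 8.06, 8.02 and 8.11 on the induced arrays, against 7.11, 7.07, 6.96 and 6.81 on the uninduced arrays (1.10 ± 0.08, adjusted p = 1.01e-06). MRRF, the recycling factor, had 8.97, 8.70, 8.97 and 8.56 on the induced arrays, against 7.82, 7.85, 7.80 and 7.63 on the uninduced arrays (1.03 ± 0.09, adjusted p = 3.02e-06). The groups were far apart in both genes. The initiation factor MTIF2 (-0.66 ± 0.09) and the elongation factor GFM1 (-0.57 ± 0.09) were lower, each without overlap.

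Of 23 assembly and ribosomal RNA factors, 12 were higher, 6 lower and 5 not passed. The largest rises were those of TFB1M, which dimethylates the small ribosomal RNA (1.44 ± 0.10), and RBFA, a small-subunit assembly factor (1.09 ± 0.10). The largest falls were those of MRM2, a methyltransferase of the large ribosomal RNA (-0.54 ± 0.08), and ERAL1, a chaperone of the small ribosomal RNA (-0.41 ± 0.10). Of 10 genes for mitochondrial transcription and messenger RNA, 5 were higher, MTERF1 among them, 1 lower and 4 not passed. MTERF1, a transcription terminator, had 5.94, 5.49, 6.12 and 5.65 on the induced arrays, against 3.62, 4.17, 3.77 and 4.05 on the uninduced arrays. Its uninduced values were below 4.78, the lowest mean at which a gene was tested, so it was tested only because of its induced values, and no size is given for its difference. Its call is therefore no support for a direction in the counts that include it. TFAM, which packages mitochondrial DNA, was higher by 1.04 ± 0.11. TEFM, an elongation factor of mitochondrial transcription, passed as lower with a difference of -0.25 ± 0.08. It lost that call without induced replicate 2 or 3 or uninduced replicate 1, 2 or 4, with differences of -0.25 to -0.20. It also lost it with the pairs as a random block (adjusted p = 0.0594), without covariates (adjusted p = 0.0803) and with arrays centred on probe sets with 1 symbol (-0.12, adjusted p = 0.264).

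Of 8 nuclear regulators tested, 6 were higher, 1 lower and 1 not passed. PPRC1, a coactivator related to PGC-1, was higher by 0.67 ± 0.09 and GABPB1, the partner of the ETS factor GABPA, by 0.49 ± 0.09. YY1, the factor whose letters were found in 34.8% of member promoters, had 8.70, 8.90, 8.85 and 8.73 on the induced arrays, against 8.96, 9.03, 8.99 and 9.14 on the uninduced arrays. The groups did not overlap, but the gap was small (-0.24 ± 0.09, adjusted p = 0.0347). The call was lost without induced replicate 1 or 4, without any 1 of the 4 uninduced replicates and in the fits blocked on pairs, fixed (adjusted p = 0.0540) or random (adjusted p = 0.0686), and under the same centring (-0.10, adjusted p = 0.309), with differences of -0.25 to -0.18 when an array was left out. Of the other factors whose letters were searched for, NRF1 did not pass (0.22 ± 0.09). GABPA (0.39 ± 0.09, no overlap) and MYC (0.35 ± 0.09, with overlap) passed as higher. These are named for the motif search and not for the size of their change.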

How the data were processed

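RNA from the infected L1236 cells was measured on 8 whole-transcript arrays. The deposited values were on a log2 scale, made by the authors with RMA in Partek per the submitters' processing notes, which give no versions. The base of the logarithm was inferred from the values. The deposited tables held 33297 probe sets for genes and 257430 for exons. Symbols came from the platform's annotation, which gave 1 symbol for 19460 gene-level probe sets, more than 1 for 1754 and no symbol for 12083; updating them left the members unchanged.

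Genes with several probe sets were represented by their brightest one, and genes below the 25th percentile of means were left out, leaving 13796 of 18395. limma 3.58.1 in R 4.3.3 fitted induction label, B code and last number over the 8 arrays (4 residual and 6.27 prior degrees of freedom), with two-sided tests and Benjamini-Hochberg adjustment over all tested genes. The same fit was run on 168240 exon-level probe sets. The fit was tested on simulated data. A fold change compares a gene with itself, since probes differ in brightness; the number of arrays limits the precision. Figures used matplotlib 3.10.9.

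Members, gene lists and markers were chosen with earlier results of these data known. The text names up to 7 largest rises and falls of the large subunit and up to 5 of the small subunit among genes past the threshold and moving one way in all 4 pairs (5 falls and 4 falls met this), the 2 members on either side of the threshold, the 3 with the lowest p for each test of the B code, the stalk and MRPS18 genes, MRPS30, the 2 largest changes each way in each list, and genes described as chosen afterwards or by position.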

Additional observations from a re-analysis of the deposited data

Results flagged for a closer look

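In 4 cases a value lay far from the other arrays of its label by Dixon's criterion at the 95% level, of 98 groups of 4 arrays examined, and chance alone flags about 1 in 20 groups. MRPL53 on uninduced replicate 4 was 9.58, with the other uninduced arrays between 9.70 and 9.72. MRPL28 on uninduced replicate 3 was 7.96, with the others between 7.78 and 7.81. MRPL55 on uninduced replicate 1 was 7.14, with the others between 7.37 and 7.40. ERAL1 on induced replicate 2 was 8.81, with the other induced arrays between 9.08 and 9.11. No member passed the limma test of a difference between the B codes.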

How the results depend on the processing

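The number of members called between induction labels stayed within 1.5 times of the count reported for each subunit under every alternative run, but the number of lower calls did not. Large-subunit genes with lower signal numbered 6, 2 with the mean of exon-level probe sets, 3 when arrays were centred on probe sets with 1 symbol (chosen after seeing the data) and 3 to 6 when 1 array was left out, the 3 without uninduced replicate 2. Small-subunit genes with lower signal numbered 4, and 1 under the same centring. With 1 array left out, 20 to 27 large-subunit and 14 to 15 small-subunit members were called. Limited to the last 150 bases, the members' promoter shares were 6.06% for NRF1 and 4.55% for the E-box, against 9.15% and 5.67% for tested genes, which turns the order seen in the whole window. The sign turned for MRPL10 (0.095 under that centring, 0.0012 by the exon-level mean), MRPL11 (0.108 and 0.082) and MRPS30 (0.093 and 0.011), whose differences are near 0. With an array left out, MRPL11 ran from -0.114 to 0.0174 (0.0079 without induced replicate 4, 0.0066 without uninduced replicate 1, 0.0174 without uninduced replicate 4) and MRPS30 from -0.0775 to 0.0240 (0.0240 without induced replicate 2, 0.0208 without uninduced replicate 2). The cause of these changes was not tested. The deviations of arrays with the same code and number from their group means correlated at 0.158, -0.021, 0.114 and 0.022 over genes. Such arrays share a B code and a last number, and these values do not settle whether they share a culture. With the pair as a replicate block, 25 large-subunit and 15 small-subunit members were called, MRPL16 and MRPL34 no longer among them, and 7336 genes in all. Quantile normalisation gave 37 higher and 10 lower members. It also raised the share of higher among all called genes to 55.8%, from 48.9%.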
